A study of Homo sapiens with 24 samples.

Results

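The genes described here encode enzymes that build asparagine, serine, proline, aspartate and alanine: ASNS, PHGDH, PSAT1, PSPH, ALDH18A1, PYCR1, GOT1 and GPT2. They were taken by symbol from the gene count table, where each of the 8 has 1 entry among 26645 gene entries, and all 8 had enough counts to be tested. On GRCh38 (GENCODE) they lie on 6 chromosomes, ASNS at chr7:97851677-97872542 and PSPH at chr7:56011051-56051604 (both minus strand), PHGDH at chr1:119648411-119744218, PSAT1 at chr9:78297125-78330093 and GPT2 at chr16:46884362-46931289 (plus strand), and ALDH18A1 at chr10:95605941-95656711, GOT1 at chr10:99396870-99430624 and PYCR1 at chr17:81932384-81942412 (minus strand). Gene expression was measured by poly(A) RNA-seq in 24 libraries, 3 in each of 8 groups. MB468 is the human triple-negative breast cancer line MDA-MB-468, which needs methionine (Met) to proliferate, and R8 is MDA-MB-468res-R8, a revertant clone obtained from it by long culture in Hcy medium that no longer needs Met. Both lines were grown in dialyzed serum with added glutamine, cysteine and vitamin B12. At 0 h they were in Met+ medium with 100 µM Met, and at 0.5, 2 and 12 h they had been in Met-Hcy+ medium, in which 370 µM DL-homocysteine (Hcy), the precursor of Met, took the place of Met. R8 is 1 clone, so Met independence and any other feature of that clone cannot be told apart, and no library came from cells kept in Met+ medium until 12 h, so time in culture and Met stress cannot be told apart either.

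Cells that run short of an amino acid, or whose ER is stressed, phosphorylate the initiation factor eIF2α, which slows translation in general but favors translation of the transcription factor ATF4. ATF4 is known to raise transcription of enzymes for nonessential amino acids, ASNS and the serine pathway among them, and, through CHOP (encoded by DDIT3), of genes tied to cell death and to recovery of translation. ATF4 with a C/EBP partner binds C/EBP-ATF response elements (CARE), so the amino acid enzymes and the CHOP genes are commonly read as branches of one response.

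The known element of the ASNS promoter is the textbook case, and the promoters were therefore searched for it. Windows of 250 bases upstream of the start site came from RefSeq (GRCh38.p14), which held 5 of the 8 amino acid genes and 7 of the 8 CHOP genes. The letters searched on both strands were TGATGNAA for the CARE, CACGTG for an E-box and, for the ER stress element, CCAAT followed after a fixed spacer by CCACG, and no match overlapped another. The CARE matches of both groups of genes are shown because the CARE is the element that the branches are commonly held to share, and the E-box of ALDH18A1 because it was the only other match among the amino acid genes (BBC3 of the CHOP genes also held an E-box, not shown). Each is given 5′ to 3′ along the strand of its gene, and capitals mark the match.
ASNS CARE: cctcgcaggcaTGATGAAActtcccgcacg
GOT1 CARE (reverse orientation): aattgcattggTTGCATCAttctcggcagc
CHAC1 CARE (reverse orientation): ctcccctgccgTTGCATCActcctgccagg
ALDH18A1 E-box: ggctggcccgcCACGTGgagcgctggct
The ASNS window lies at chr7:97872458-97872487 on the minus strand, with the match 68 to 61 bases before the RefSeq start site and inside the GENCODE span of the gene (chr7:97851677-97872542). The GOT1 window lies at chr10:99430804-99430833 on the minus strand, and its match runs from 198 to 191 bases before the start. The CHAC1 window, from the CHOP branch, lies at chr15:40953251-40953280 on the plus strand with its match 209 to 202 bases upstream. The ALDH18A1 window lies at chr10:95656831-95656858 on the minus strand. Of all 35116 promoter windows, 3.14% held a CARE, 6.34% an E-box and 0.074% an ER stress element. PHGDH and PSAT1 had an entry without any of these letters, PSPH, PYCR1 and GPT2 had no entry, and a match is only a description of the sequence.

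The libraries held 11745553 to 36496655 counts (median 20503827), and the lowest raw count of any of the 8 genes in a library was 1271. Levels are given as normalized counts, that is, counts brought to a common library size with TMM factors, and fold changes come from edgeR's quasi-likelihood test over 14741 genes. A change was called where the p adjusted over all of these by the Benjamini-Hochberg method was under 0.05. Within a group, the coefficient of variation of a member ran from 0.775% to 15.4%, with a median of 4.55%. Epithelial markers were abundant in every group (EPCAM 6757 to 9609 and EGFR 49489 to 92981 normalized counts on average), the progesterone receptor PGR and the leukocyte gene PTPRC averaged at most 1.01 and 2.22, and ESR1 was low but detected (108 to 484). COL1A1, a fibroblast gene, averaged 338 to 1488 and its part in the results was not tested. The library MB468 2 h replicate 2 stood apart with 705 CPM (its share of the library's counts, scaled to a fixed total) of the non-polyadenylated RNA RN7SK, against at most 10.2 in the other 23, and calls of the 8 genes that depend on it are given without it.

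Before the media switch, the lines already differed in all 8 genes, which 53.5% of all tested genes also did: 6 of the 8 were lower in R8 (27.1% of all genes were) and 2, PSPH and GOT1, were higher (26.4% of all genes). GPT2, which makes alanine from pyruvate in mitochondria, had the largest difference of the 8. Its normalized counts were 9319, 9672 and 10384 in MB468 and 4098, 5248 and 4018 in R8. The groups did not overlap, and R8 was lower by a log2 fold change of -1.14 (SE 0.0899, adjusted p = 4.44e-09). ASNS, which makes asparagine from aspartate and glutamine, was lower in R8 by -0.69 (SE 0.0681, adjusted p = 8.94e-09). PSPH, the last enzyme of serine synthesis, went the other way at 0.56 (SE 0.0428, adjusted p = 2.03e-14), with 3612, 3663 and 3928 in MB468 against 5200, 5660 and 5604 in R8, though with spike-in totals it was 0.25 and not called (adjusted p = 0.0941). GOT1, the cytosolic aspartate aminotransferase, was higher in R8 by 0.20 (SE 0.0444), but scaling by spike-in totals turned this to -0.11 (adjusted p = 0.478).

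The normalized counts per kilobase of the MANE Select transcript allow the genes to be ordered. PHGDH, which starts serine synthesis, was the most abundant in every group, at 11409 per kilobase in MB468 and 9120 in R8 at 0 h. PSAT1, which carries out the next step, came second in every group, at 5215 in MB468 and 3691 in R8 at 0 h. ASNS was the third of the 8 in MB468 at 0 h (3358 per kilobase) and the sixth in R8 at 12 h (934).

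**Figure D1:**
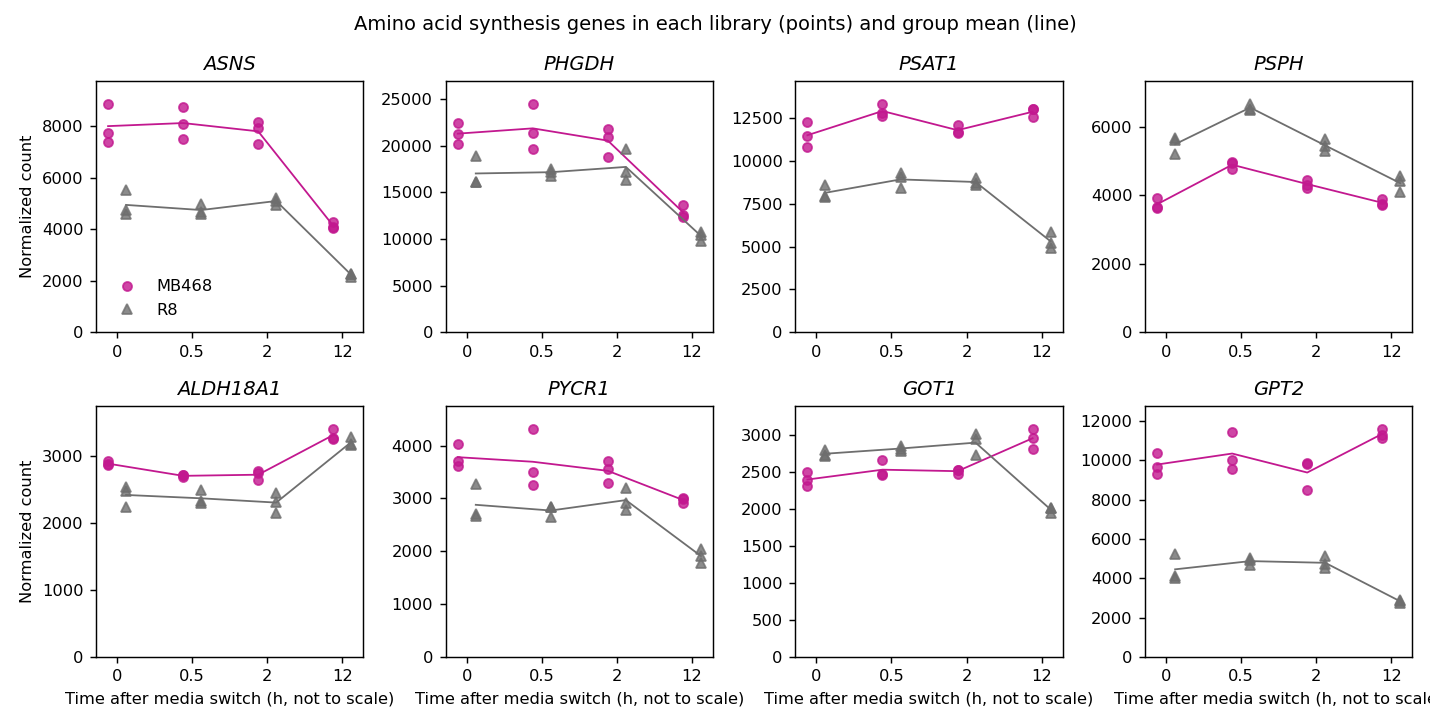
Normalized counts of the 8 genes (y, starting at 0) against time after the media switch (x, h, evenly spaced and not to scale), with a point for each library, circles for MB468, triangles for R8, and lines through the means of 3 libraries. ASNS falls between 2 and 12 h in both lines, whereas PSAT1, GOT1 and GPT2 fall in R8 and lie above their 0 h libraries in MB468 (spike-in totals turn that for PSAT1 and GPT2 and leave GOT1 uncalled).

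ASNS fell by 12 h postmedia switch in both lines. In MB468 its normalized counts were 7399, 7755 and 8876 at 0 h and 4051, 4284 and 4071 at 12 h. In R8 they were 4582, 5527 and 4732 at 0 h and 2253, 2270 and 2161 at 12 h. In neither line did the 12 h libraries overlap those at 0 h. The log2 fold change was -0.95 (SE 0.068, adjusted p = 1.43e-11) in MB468 and -1.15 (SE 0.0714, adjusted p = 2.37e-12) in R8. The difference between these responses (R8 minus MB468) was -0.20 (SE 0.098), which did not pass the test (adjusted p = 0.0921), although it did without MB468 0 h replicate 3 (adjusted p = 0.0263) or without the low-count filter (adjusted p = 0.0117). By quantitative PCR the authors report the opposite direction, with higher ASNS in MB468 in Met-Hcy+ medium relative to a Met+ control. That control was cultured in Met+ medium for 12 h, whereas the libraries here are set against 0 h. The reason for the difference was not tested. In bulk RNA, a lower level in each cell and fewer cells with the transcript cannot be told apart.

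At 0.5 and 2 h the ASNS libraries overlapped those at 0 h in both lines. The log2 fold changes were 0.02 and -0.04 in MB468 and -0.06 and 0.05 in R8, none called. Over the 8 groups the order of mean ASNS levels was MB468 at 0.5 h (8130 ± 622, SD, n = 3), 0 h (8010 ± 771) and 2 h (7808 ± 438), whose libraries overlapped. R8 at 2 h (5099 ± 140), 0 h (4947 ± 508) and 0.5 h (4747 ± 198) followed and overlapped with each other. MB468 at 12 h (4135 ± 129) lay below all 0, 0.5 and 2 h libraries of R8, and R8 at 12 h was the lowest (2228 ± 58.6).

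The serine pathway did not move as one. PHGDH, its first and committed step, fell in each line. In MB468 it had 20205, 21265 and 22396 normalized counts at 0 h and 12371, 12574 and 13659 at 12 h. In R8 it had 16110, 18893 and 16051 at 0 h and 10756, 9823 and 10401 at 12 h. Neither pair of groups overlapped, and the log2 fold change was -0.73 in MB468 (SE 0.0861, adjusted p = 5.57e-07) and -0.72 in R8 (SE 0.0868, adjusted p = 1.01e-06). The difference was 0.01 (adjusted p = 0.975), with a 95% interval from -0.25 to 0.26.

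PSAT1, the aminotransferase that follows PHGDH, separated the lines at 12 h. MB468 had 10799, 11461 and 12254 at 0 h and 13042, 13022 and 12562 at 12 h, which gave a log2 fold change of 0.16 (SE 0.0483, adjusted p = 0.00311) that became -0.07 with spike-in totals (adjusted p = 0.662). R8 had 7887, 8609 and 7934 at 0 h and 4891, 5826 and 5202 at 12 h, which gave -0.62 (SE 0.0497, adjusted p = 3.12e-13). All 3 R8 libraries at 12 h lay below those at 0 h, and all 3 MB468 libraries at 12 h lay above theirs. The difference in response was -0.78 (SE 0.0693, adjusted p = 4.77e-12), and it was also called with spike-in totals (-0.51, adjusted p = 0.0142).

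PSPH, the phosphatase that releases serine, had the largest early change of the 8. In MB468 it went from 3612, 3663 and 3928 at 0 h to 4940, 4771 and 4955 at 0.5 h, and in R8 from 5200, 5660 and 5604 to 6526, 6482 and 6666. Neither pair of groups overlapped, and the log2 fold changes were 0.39 in MB468 (SE 0.0431, adjusted p = 1.04e-09) and 0.26 in R8 (SE 0.0421, adjusted p = 3.6e-06). With spike-in totals the direction held but neither was called (0.17 and 0.30). At 2 h MB468 was still above 0 h by 0.21 (adjusted p = 0.000348), which turned to -0.21 with spike-in totals, whereas R8 was at -0.01 (adjusted p = 0.982). The difference at 2 h, -0.22 (SE 0.0608, adjusted p = 0.0218), turned to 0.15 with spike-in totals and was no longer called without MB468 2 h replicate 2 (adjusted p = 0.0629) or without any of 5 other libraries: MB468 0 h replicates 1 and 2, R8 0 h replicates 2 and 3, and R8 2 h replicate 1 (adjusted p from 0.0568 to 0.0797).

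By 12 h PSPH in MB468 overlapped its 0 h libraries again (3881, 3747 and 3703), with a log2 fold change of 0.02 (SE 0.0428, adjusted p = 0.704). In R8 it had 4080, 4560 and 4410, a fall of -0.33 (SE 0.0425, adjusted p = 8.04e-09), with no overlap with its 0 h libraries. The difference was -0.35 (adjusted p = 3.36e-06), and -0.09 with spike-in totals (adjusted p = 0.737). PSPH is known to have a pseudogene copy, no pseudogene of the 8 genes is listed in the count table, and reads shared with a copy could not be separated.

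The proline pair moved in opposite directions, except in MB468 with spike-in totals. ALDH18A1, which turns glutamate into the precursor of proline and ornithine, was the only one of the 8 higher at 12 h in R8. MB468 had 2858, 2922 and 2877 at 0 h and 3257, 3270 and 3410 at 12 h, and R8 had 2484, 2529 and 2240 at 0 h and 3277, 3167 and 3178 at 12 h. Neither pair of groups overlapped, and the lines overlapped at 12 h although they did not at 0 h. The log2 fold change was 0.20 in MB468 (SE 0.0446, adjusted p = 0.000136), which turned to -0.04 with spike-in totals, and 0.41 in R8 (SE 0.0456, adjusted p = 4.64e-10), which spike-in totals left at 0.43. The difference of 0.21 (SE 0.0638, adjusted p = 0.0055) was also called with spike-in totals, at 0.47 (adjusted p = 0.0305).

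PYCR1, the mitochondrial enzyme of the last step to proline, fell. In MB468 it had 3611, 3710 and 4023 at 0 h and 2987, 2916 and 3012 at 12 h, which gave a log2 fold change of -0.34 (SE 0.0907, adjusted p = 0.00247). In R8 it had 2674, 3264 and 2699 at 0 h and 2039, 1771 and 1917 at 12 h, which gave -0.59 (SE 0.0952, adjusted p = 2.96e-05). The groups did not overlap in either line. The difference of -0.24 (SE 0.131) did not pass the test (adjusted p = 0.124), but did without the low-count filter (adjusted p = 0.0019) and in a fit to these 4 groups alone (adjusted p = 0.0475). PYCR1 overlaps MYADML2 on the same strand, which had 0 to 19 counts per library.

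The transaminases GOT1 and GPT2 also parted at 12 h. GOT1 had 2301, 2382 and 2500 at 0 h and 3084, 2960 and 2813 at 12 h in MB468, and 2711, 2799 and 2720 against 2011, 2016 and 1943 in R8. The 12 h libraries lay above those at 0 h in MB468 and below them in R8, with log2 fold changes of 0.30 (SE 0.0437, adjusted p = 7.13e-08) and -0.46 (SE 0.0448, adjusted p = 1.03e-11). The MB468 rise was 0.07 and not called with spike-in totals (adjusted p = 0.662). The difference was -0.77 (SE 0.0625, adjusted p = 1.19e-13), or -0.51 with spike-in totals (adjusted p = 0.0174).

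GPT2 reached 11306, 11128 and 11627 at 12 h in MB468, above its 3 libraries at 0 h, whereas in R8 it dropped to 2841, 2886 and 2743. The R8 fall was -0.66 (SE 0.0926, adjusted p = 6.73e-06). The MB468 rise of 0.21 (SE 0.0868, adjusted p = 0.0352) was weak: it was not called without any 1 of 5 of the 6 libraries (all but MB468 0 h replicate 3, adjusted p from 0.0583 to 0.125), with DESeq2's size factors (adjusted p = 0.0619) or in DESeq2's Wald test (adjusted p = 0.0565), and spike-in totals turned it to -0.02. The R8 change from 0 to 12 h minus that of MB468 was -0.87 (SE 0.127, adjusted p = 1.11e-05), the largest in size of the 8. It was called with spike-in totals too (-0.61, adjusted p = 0.00343).

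Counted together, 7 of the 8 genes were called at 12 h in MB468, 4 higher and 3 lower, where 70.8% of all tested genes were called (36.1% higher and 34.7% lower), and their median log2 fold change was 0.09 against 0.01 over all genes. In R8 all 8 were called, 1 higher and 7 lower, where 61.3% of all genes were called (30.2% higher and 31.1% lower), and their median was -0.60 against -0.02. The difference in the 12 h response was called for 5 of the 8, where 56.5% of all genes were called (26.2% higher and 30.3% lower): lower in R8 for PSAT1, PSPH, GOT1 and GPT2 and higher for ALDH18A1. The comparisons of a line share their 0 h libraries. Where most genes were called, such a count says little of the group.

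The early time points held few calls. At 0.5 h, PSPH and PSAT1 were higher in each line and the other 6 were not called, where 33.9% of all genes in MB468 and 33.7% in R8 were called (17.6% and 17.4% higher). PSAT1 at 0.5 h rose by 0.17 in MB468 (adjusted p = 0.00651, but -0.05 with spike-in totals) and by 0.13 in R8, where it was not called without R8 0 h replicate 1 or 3 or R8 0.5 h replicate 2 or 3 (adjusted p from 0.125 to 0.177). In MB468 it was not called without MB468 0 h replicate 1 (adjusted p = 0.0918). GPT2 in R8 at 0.5 h (0.13, adjusted p = 0.311) became a call without R8 0 h replicate 2 (0.26, adjusted p = 0.00566). At 2 h, only PSPH was called in MB468 (16.3% of all genes were, 8.88% higher), and with spike-in totals 7 of the 8 were called lower, where 64.5% of all genes were called and 2.52% of those were higher.

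In R8 at 2 h none of the 8 was called by edgeR, against 4.37% of all genes, with 1 at an unadjusted p under 0.05 and 0 called by DESeq2. For the change from 0 to 0.5 h, edgeR called R8 different from MB468 in none of the 8 genes, against 2.9% of all genes. Of the 8, 1 had an unadjusted edgeR p under 0.05, and DESeq2 called 0. For the change from 0 to 2 h, PSPH alone was called different, against 5.07% of all genes (2.88% lower). From 2 to 12 h all 8 genes were called in each line, where 69.7% of all genes were called in MB468 and 62.5% in R8. In MB468 4 of them were higher and 4 lower (34.6% and 35.1% of all genes), and in R8 1 was higher and 7 lower (30.7% and 31.8%). With spike-in totals PSPH was called in neither line (-0.0097 in MB468 and -0.25 in R8, adjusted p of 0.954 and 0.104), nor was PYCR1 in MB468 (-0.065, adjusted p = 0.693). In MB468, PYCR1 between 2 and 12 h (-0.24) was also not called with the spike-in factor as a covariate (-0.14, adjusted p = 0.166) or without MB468 2 h replicate 2 (adjusted p = 0.0579), nor without MB468 2 h replicate 1 or 12 h replicate 2 (adjusted p of 0.104 and 0.0616). PSAT1 (0.13) was not called without 2 h replicate 1 or 3 or 12 h replicate 1 or 2 (adjusted p from 0.0663 to 0.0831), and GPT2 (0.28) without 2 h replicate 3 (adjusted p = 0.0644).

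**Figure D2:**
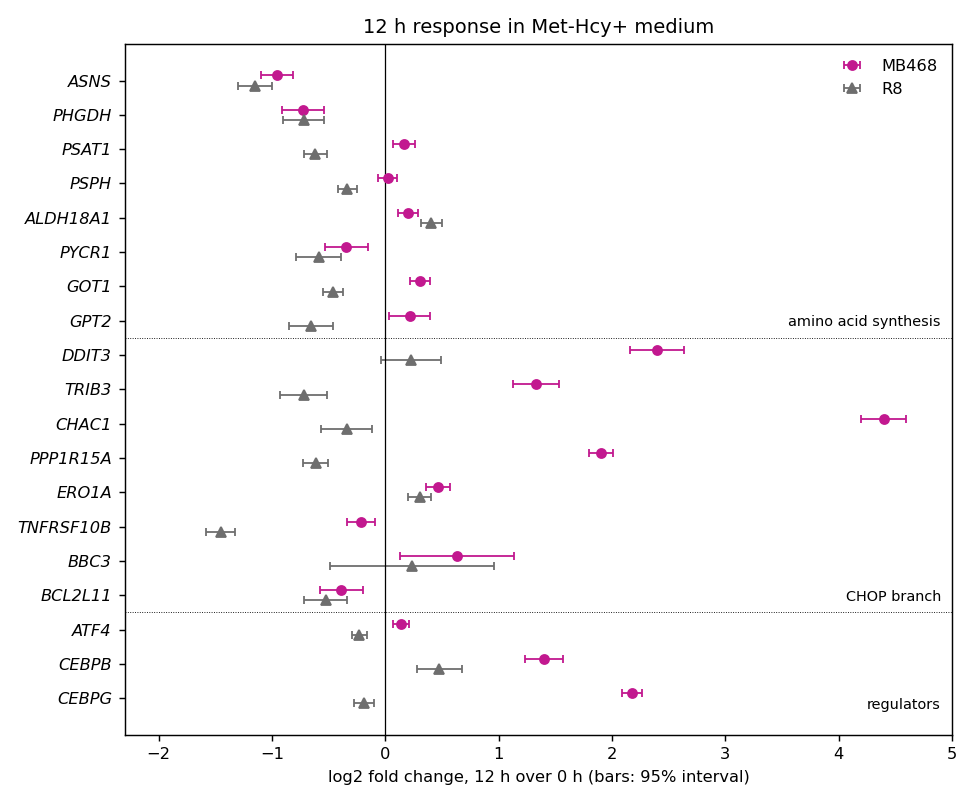
log2 fold change at 12 h over 0 h (x) for the amino acid genes, the CHOP branch and the regulators (y), with circles for MB468, triangles for R8 and bars for the 95% interval. In MB468 the CHOP branch reaches 4.40 (CHAC1) while the amino acid genes lie between -0.95 and 0.30, and the R8 values of both groups lie mostly below 0. Spike-in totals turn PSAT1, PSPH, ALDH18A1, GPT2 and ATF4 below 0 in MB468.

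The CHOP branch was set beside the amino acid genes. At 12 h in MB468 all 8 of its genes were called, 6 higher and 2 lower, where 70.8% of all genes were called (36.1% higher and 34.7% lower), and their median log2 fold change was 0.98. CHAC1, which degrades glutathione, rose by 4.40 (adjusted p = 8.88e-30) and DDIT3, which encodes CHOP, by 2.39 (adjusted p = 5.31e-21). PPP1R15A, the GADD34 phosphatase subunit that restores translation, rose by 1.90 and TRIB3, a pseudokinase that restrains ATF4 signaling, by 1.33. BBC3, which encodes the apoptosis protein PUMA, rose by 0.63 and ERO1A, an ER oxidase, by 0.46, though neither was called with spike-in totals (0.38 and 0.23). TNFRSF10B, the death receptor DR5, fell by 0.22 on the log2 scale and BCL2L11, which encodes BIM, by 0.39. ASNS, PHGDH and PYCR1 were lower in the MB468 libraries in which DDIT3, CHAC1, PPP1R15A and TRIB3 were higher. The branches did not part as wholes. PSAT1, ALDH18A1, GOT1 and GPT2 were called higher there (none with spike-in totals), PSPH was not called, and TNFRSF10B and BCL2L11 were lower.

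In R8 at 12 h, 6 of the 8 CHOP genes were called, where 61.3% of all genes were (30.2% higher and 31.1% lower), with ERO1A higher (0.30) and 5 lower: TNFRSF10B (-1.45), TRIB3 (-0.72), PPP1R15A (-0.62), BCL2L11 (-0.53) and CHAC1 (-0.34, not called with spike-in totals). DDIT3 (0.23) and BBC3 (0.24) were not called. The difference in the 12 h response was called for 5 CHOP genes, all lower in R8, where 56.5% of all genes were called (30.3% lower): CHAC1 (-4.74), PPP1R15A (-2.52), DDIT3 (-2.17), TRIB3 (-2.05) and TNFRSF10B (-1.24). ERO1A (-0.16), BBC3 (-0.40) and BCL2L11 (-0.14) did not pass the test.

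With TMM factors, more CHOP genes than amino acid genes were called at the early times. At 0.5 h, 7 of 8 CHOP genes were called in each line, 6 higher and 1 lower, compared with 2 of the 8 amino acid genes and with 33.9% of all genes in MB468 and 33.7% in R8 (17.6% and 17.4% higher). With spike-in totals 6 were called in each line, without BBC3 in MB468 (adjusted p = 0.117) and BCL2L11 in R8 (adjusted p = 0.0512). That scaling called 22.3% of all genes in MB468 and 13.7% in R8 at 0.5 h. At 2 h, 7 CHOP genes were higher in MB468 and 2 in R8, where 16.3% (8.88% higher) and 4.37% of all genes were called. Without MB468 2 h replicate 2, the MB468 count was 5. With spike-in totals it was 4, of which 3 were higher and ERO1A was lower (-0.35), and in R8 the 2 were no longer called. The change from 0 to 2 h was called different in R8 and MB468 for 5 CHOP genes, all lower in R8. Of all genes, 5.07% were called in that comparison (2.88% lower). With spike-in totals 3 CHOP genes were called in it (CHAC1, DDIT3 and PPP1R15A). Among the amino acid genes, PSPH was called in it with TMM factors.

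The regulators ATF4, CEBPG and CEBPB were followed in the same libraries. Mean ATF4 mRNA in MB468 went from 25668 normalized counts (0 h) to 31966 (2 h) and 28228 (12 h). In R8 the same times gave 23347, 24642 and 19919. For ATF4 in MB468 at 2 h the log2 fold change was 0.32, but -0.10 and not called with spike-in totals (adjusted p = 0.463). Its log2 fold change at 12 h was 0.14 in MB468 (adjusted p = 0.000423), which turned to -0.10 with spike-in totals, and -0.23 in R8 (adjusted p = 2e-07), which those totals left at -0.20 without a call. The level of ATF4 mRNA does not give the level of ATF4 protein, which was not analysed here. CEBPG, a C/EBP partner of ATF4, rose by 2.17 in MB468, from 3772 to 16992 normalized counts, and was at -0.19 in R8 (not called with spike-in totals). CEBPB, another such factor, rose by 1.40 in MB468 and 0.47 in R8. The difference in the 12 h response was called for all 3, each lower in R8 (ATF4 by -0.37, CEBPG by -2.36 and CEBPB by -0.93). Of all genes, 56.5% were called in that comparison (30.3% lower). For ATF4 spike-in totals left -0.11 without a call.

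Of the 16 other enzymes of the same amino acids, 14 had enough counts to be tested. In MB468 at 12 h, 9 were called, 1 higher and 8 lower, where 70.8% of all genes were called (36.1% higher and 34.7% lower). The higher one was SHMT2, which makes glycine from serine in mitochondria (0.15, but -0.09 with spike-in totals). The largest falls were in SDS, which breaks down serine (-2.70, from 15 to 2 normalized counts, so near the floor), and ALDH4A1, which breaks down proline (-1.25, from 1570 to 661). In R8, 13 were called, 3 higher and 10 lower, where 61.3% of all genes were called (30.2% higher and 31.1% lower). With spike-in totals 7 were called in R8, where 39.9% of all genes were. GOT2, the mitochondrial partner of GOT1, rose by 0.27 (0.29 with spike-in totals, not called). The largest called R8 falls were in SDS (-1.90) and GPT, the cytosolic partner of GPT2 (-1.02), both of which averaged under 40 normalized counts. GOT1 and GOT2 thus had R8 values of opposite sign, -0.46 and 0.27.

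**Figure D3:**
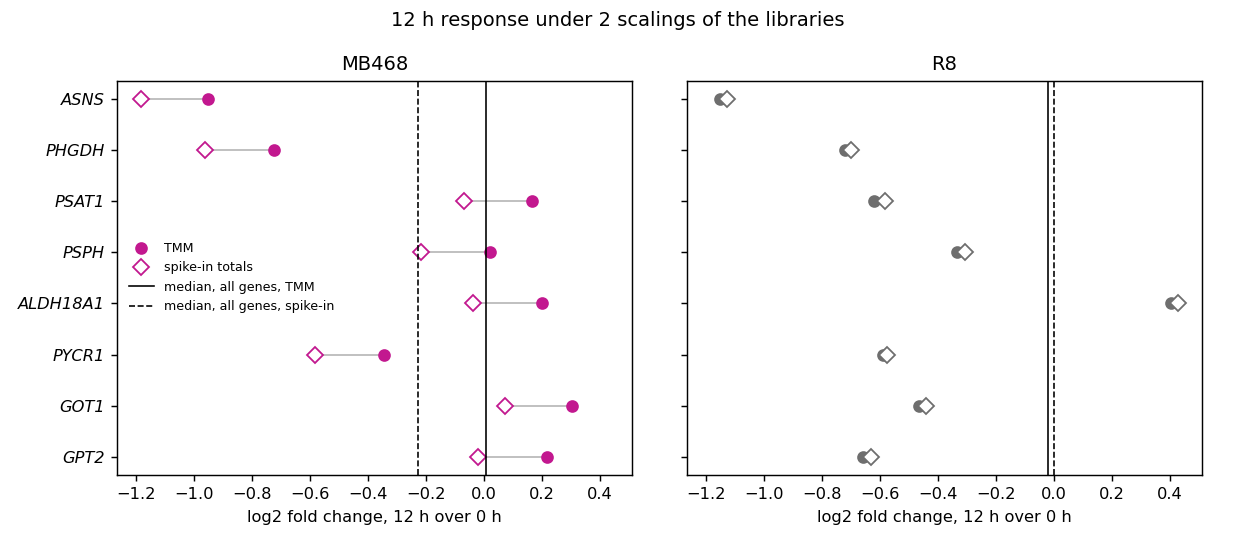
log2 fold change at 12 h over 0 h (x) of each gene (y) scaled by TMM (filled circles) and by spike-in totals (open diamonds), with the median of all tested genes under each scaling (solid and dashed lines). In MB468 spike-in totals move the median to -0.23 and take PSAT1, PSPH, ALDH18A1 and GPT2 below 0. PSPH is called under neither scaling there. In R8 the values hardly move.

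The directions of the small changes depended on the scaling of the libraries. The spike-ins took 0.201% to 0.303% of the counts, and how their amount was set against the cells or RNA is not given in the sources used here. With their totals as library sizes, the log2 fold change of the median gene was -0.23 in MB468 at 12 h, -0.42 at 2 h and -0.20 at 0.5 h. It was -0.31 between the lines at 0 h, and 0.20 for the 12 h change in R8 minus that in MB468. In R8 against its 0 h libraries it was 0.04 at 0.5 h, -0.04 at 2 h and 0 at 12 h. Relative to that median, the MB468 12 h values were -0.95 for ASNS, -0.73 for PHGDH and -0.35 for PYCR1, and 0.16 for PSAT1, 0.19 for ALDH18A1, 0.30 for GOT1 and 0.21 for GPT2. ASNS, PHGDH and PYCR1 were called lower at 12 h in both lines under both scalings.

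**Figure D4:**
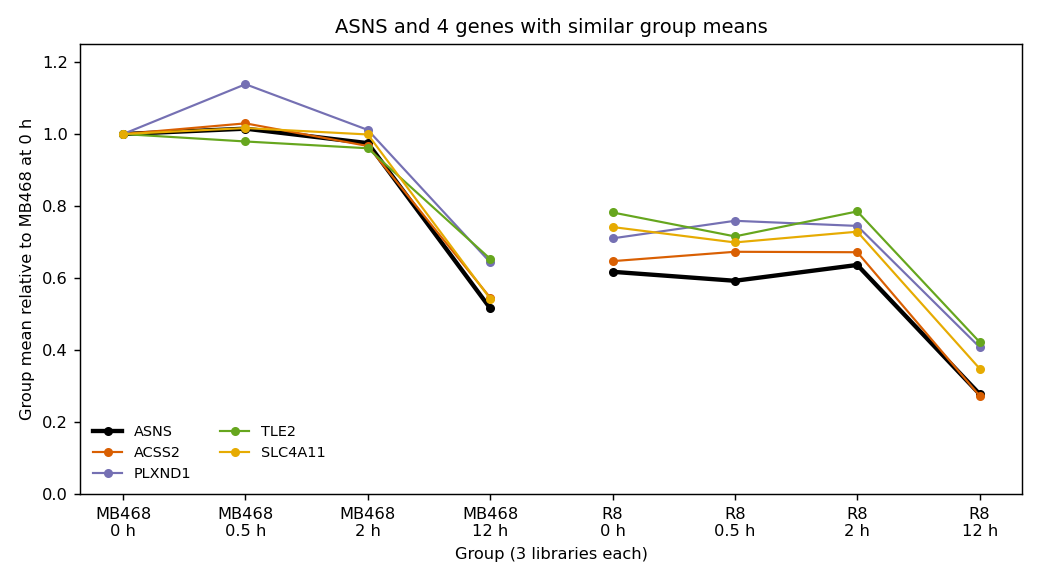
Mean normalized count of ASNS (thick black line) and of 4 of the 5 most similar other genes (ACSS2, PLXND1, TLE2 and SLC4A11) in each group (x), relative to MB468 at 0 h (y). At 0.5 and 2 h they stay near their 0 h level (PLXND1 rises to 1.14 at 0.5 h in MB468), and they drop at 12 h in both lines, and start lower in R8.

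The genes whose pattern was most like that of ASNS were found by Pearson's r over the 8 group means of log2 CPM, among the 6383 other tested genes that averaged 5 or more on the log2 CPM scale. Those reported here are ACSS2 (0.994), which makes acetyl-CoA from acetate, PLXND1 (0.992), a semaphorin receptor, TLE2 (0.991), a transcriptional corepressor, and SLC4A11 (0.990), a membrane transporter. These points share the libraries and the time course, and the values describe them without a test. At 12 h ACSS2 fell by 0.87 on the log2 scale in MB468 and by 1.24 in R8, and SLC4A11 by 0.88 and 1.08. Among the 8 genes, PYCR1 (0.976) and PHGDH (0.967) were most like ASNS, with 15 and 29 of the other genes above them, followed by PSAT1 (0.808) and GPT2 (0.741). GOT1 (0.312), PSPH (-0.07) and ALDH18A1 (-0.33) were least like it. PSAT1 and GPT2 were in turn close to each other (0.971).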

How the data were processed

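RNA was measured in 24 libraries, 3 per group. The authors aligned single-end reads of poly(A)-selected, unstranded TruSeq v2 libraries to GRCh38/hg38 joined with ERCC spike-in sequences, with HISAT2 2.1.0, and counted reads per gene with featureCounts (Subread 1.5.3, per the submitters' processing notes), which gave the deposited table of raw counts used here. The counting's annotation and strand setting are not given in the sources used here, so overlapping genes cannot be separated. The authors' DESeq2-normalized counts and their table of fold changes and p-values were not used.

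Spike-ins (92 entries) were left out and the counts were fitted in R 4.3.3 with edgeR 4.0.16 (quasi-likelihood test, filterByExpr with minimum count 10 and minimum total 15, TMM, 1 mean per group over all libraries). The labels do not say that the 3 libraries of a group came from separate cultures, so p-values measure the spread between these libraries, which may be technical. No replicates were alike within sampling noise (lowest chi-square per degree of freedom 2.26). Alternatives were DESeq2 1.42.0, other scalings and filters, a replicate block, fewer groups, a threshold of 0.01 and leaving out each library. The code was tested on simulated data. Gene coordinates and MANE Select lengths come from GENCODE 44 and promoter sequences from RefSeq. The named genes are the 8 members, the CHOP branch, ATF4 and its partners, the 2 other enzymes per direction with the largest called 12 h change in each line, and the 5 genes most like ASNS, of which some items are not reported here. The members and lists were chosen with earlier results of these data known.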

Additional observations from a re-analysis of the deposited data

Results flagged for a closer look

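The response to Met-Hcy+ medium differed between MB468 and R8, by the test of the difference itself, for 5 of the 8 genes at 12 h, where 56.5% of all genes were called, and for PSPH at 2 h, against 5.07%. The differences at 12 h (R8 minus MB468, log2 scale) were -0.782 for PSAT1, -0.354 for PSPH, 0.207 for ALDH18A1, -0.767 for GOT1 and -0.872 for GPT2. At 2 h the difference for PSPH was -0.220, and it was not called without any 1 of 6 libraries. With spike-in totals as library sizes, PSAT1, ALDH18A1, GOT1 and GPT2 at 12 h were called in the same direction, PSPH at 12 h was not called, and PSPH at 2 h changed sign.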

How the results depend on the processing

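All 96 values of the 8 genes (12 comparisons each) were refitted. Spike-in totals as library sizes changed the most. With them 72 values kept their call, of which 14 uncalled ones took the other sign. In the same direction, 9 were no longer called and 6 were newly called. Another 9, called under either scaling, were reversed. Of these 9, PSAT1 and GOT1 in MB468 at 2 h were newly called lower and the others were not called with spike-in totals. The reversed log2 values were, in MB468, PSAT1 at 0.5 h (-0.050), 2 h (-0.38) and 12 h (-0.069), PSPH (-0.21) and GOT1 (-0.35) at 2 h, and ALDH18A1 (-0.037) and GPT2 (-0.022) at 12 h, then GOT1 between the lines at 0 h (-0.11) and PSPH in the 2 h difference (0.15). Under that scaling the number of genes called was 0 in both lines at 0.5 h, 7 in MB468 at 2 h and 3 in MB468 at 12 h, where it called 22.3% of all genes in MB468 and 13.7% in R8 at 0.5 h, and 64.5% and 57.4% in MB468 at 2 and 12 h. In R8 at 0.5 h it was 1 in DESeq2's Wald test, with its size factors, with a floor of 10 counts per library or at a threshold of 0.01, and the 2 h difference was 0 at 0.01. The cause was not tested. Leaving out each library gave 1 to 2 calls in MB468 at 0.5 h, 1 to 3 in R8 at 0.5 h, 0 to 1 for the 2 h difference, 6 to 7 in MB468 at 12 h, 6 to 8 from 2 to 12 h in MB468 and 5 to 6 for the 12 h difference. Uncalled values took the other sign in 49 cases, counted per value and setting, and the refitted value was at most 0.25 in size. For leaving out each library, only the lowest and highest refit of each value were counted. The replicate numbers come from the library names. Same-numbered replicates did not deviate together in every pair of any comparison (R8 at 2 h came nearest, with correlations from -0.03 to 0.466), and a replicate block changed 0 of the 96 calls, leaving 7 genes called in MB468 and 8 in R8 at 12 h. With 3 libraries a group, an exact permutation test of a single value could not go below 0.1. Depth did not limit detection of the 8 genes.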
